A study of Mus musculus with 11 samples.

Results

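The genes described here are 32 genes of the neuronal synapse, 18 that encode postsynaptic scaffold and signalling proteins and 14 that encode adhesion proteins, out of 53700 genes counted. They were chosen by symbol with the difference in counts between the Abi3 genotypes already known, and all 32 were matched to Ensembl identifiers. Cortex came from 5xFAD females at 8 months of age, and transcripts were measured by QuantSeq, which sequences the 3′ end of each polyadenylated transcript. The 5xFAD line models amyloid deposition with mutant human transgenes driven by the neuronal Thy1 promoter, and all 11 animals carried them. The 6 Abi3_WT animals had both copies of Abi3 (Abi3 +/+) and the 5 Abi3_KO animals had neither (Abi3 -/-), from a germline deletion and not one limited to a cell type. There were no animals without the transgenes, so every difference below is between Abi3 genotypes within amyloid-bearing mice.

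At an excitatory synapse, neurotransmitter receptors sit in the postsynaptic density, a protein layer under the membrane. Membrane-associated guanylate kinases of the Dlg family bind the receptors, Dlgap proteins link them to Shank proteins, and Homer proteins join Shank to metabotropic glutamate receptors. Adhesion proteins hold the pre- and postsynaptic membranes together, as neuroligins do by binding neurexins across the cleft. Icam5, also called telencephalin, is an adhesion protein of the dendrites of excitatory neurons in the forebrain, found mostly on immature, filopodium-like protrusions. The study also recorded synaptic function in hippocampal slices of younger male mice, another tissue, age and sex than here. The question here is whether transcripts of this machinery differed between the genotypes in the cortex of these females.

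Each library held 3202310 to 5501958 reads in genes, and 3 counts, taken as the smallest detectable amount, equalled 0.545 to 0.937 CPM (reads per gene relative to the total of the library), a floor that covers counting error only. Abi3 itself had 10 to 38 reads in the Abi3_WT libraries and 0 to 2 in the Abi3_KO libraries, 4 of which had 0. Reads aligned outside annotated genes came to 59.3 to 68.8 per 100 reads in genes in Abi3_WT and 49.8 to 62.5 in Abi3_KO, so the libraries differed by genotype in this measure, with 1 Abi3_KO library inside the Abi3_WT range. Genes were compared with DESeq2 on the whole table, and called where the adjusted p was at or below 0.05. Of 17626 genes reported, 95 (0.539%) were called, 60 higher in Abi3_KO (0.34%) and 35 lower (0.199%). An adjusted p was given to 6487 genes with a mean above about 70.4 normalized counts (counts divided by a size factor for each library), of which the called genes were 1.46%. In 1.04% of the reported genes the 5 Abi3_KO animals did not overlap with the 6 Abi3_WT animals.

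Among the 32 genes, Icam5 and Cadm2 were called, both higher in Abi3_KO, and none was called lower by DESeq2 or, as alternatives, by edgeR or limma. All 32 were reported and 31 received an adjusted p, the exception being Homer3 with a mean of 12.3 normalized counts. At an unadjusted p under 0.05 stood 5 higher genes (Icam5, Cadm2, Nlgn1, Dlg3 and Cadm3) and 1 lower gene (Cntnap2), or 6 of 32, where 8.58% of all reported genes and 12.9% of those with a mean of at least 100 passed. The log2 fold change of Abi3_KO over Abi3_WT was positive in 14 genes and negative in 18, with a median of -0.0055 beside -0.0033 over all reported genes. Because the list was drawn up with results of this same contrast known, these counts are a description and nothing is read from how they compare with the shares over all genes.

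**Figure D1:**
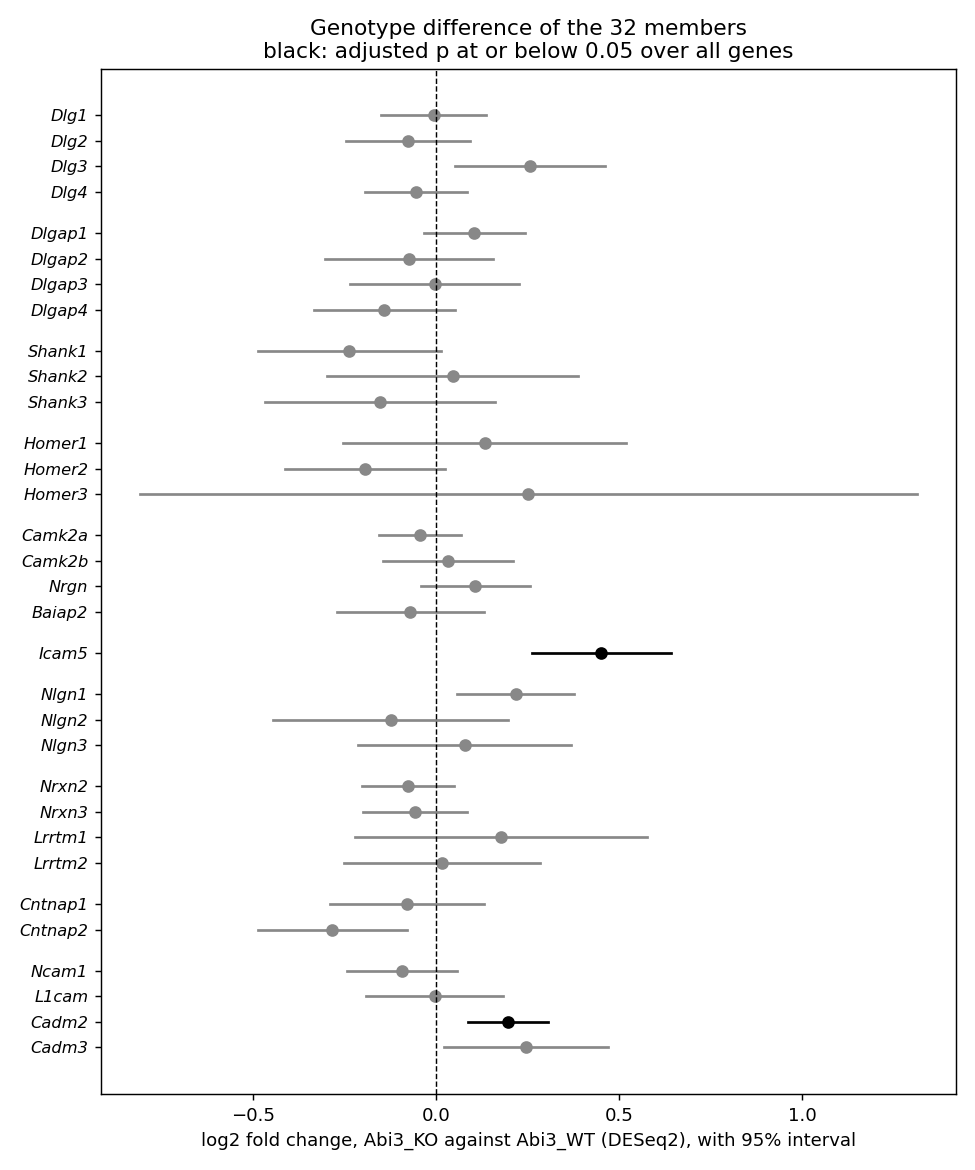
Log2 fold change of Abi3_KO (n = 5) over Abi3_WT (n = 6) for each of the 32 genes, with its 95% interval from the DESeq2 fit. Icam5 at 0.45 lies furthest right, and 26 of the 32 intervals hold 0.

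No scaffold transcript passed the test, and single genes leaned both ways, from 19.5% higher (Dlg3) to 15.2% lower (Shank1) in Abi3_KO. None of the 18 scaffold and signalling genes was called by DESeq2, edgeR or limma, 1 had an unadjusted p under 0.05, 7 had a positive and 11 a negative log2 fold change, and their median was -0.03. The 95% interval lay within -0.5 to 0.5 on the log2 scale for 16 of the 18, so smaller differences in either direction remain possible for those. With reads outside genes as a covariate in the fit, some of these estimates moved, none past the threshold. Baiap2 went from -0.07 to -0.43 (DESeq2 unadjusted p 0.00751), Homer1 from 0.13 to -0.47, Shank2 from 0.05 to -0.53 and Shank1 from -0.24 to 0.10. Others moved little, as Camk2a did from -0.04 to -0.0062. In bulk cortex, fewer cells of a type and less RNA per cell cannot be told apart.

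The Dlg genes encode the membrane-associated guanylate kinases. Dlg4 encodes PSD-95, the most studied scaffold of the excitatory synapse, and had 1198 to 1516 normalized counts in Abi3_WT (median 1344) and 1363, 1199, 1289, 1333 and 1339 in Abi3_KO. Every Abi3_KO value for Dlg4 fell inside the Abi3_WT range, and the log2 fold change was -0.06 (95% interval -0.19 to 0.08). Dlg1, encoding SAP97, varied little in both genotypes, with 503 to 531 in Abi3_WT (median 507) and 505, 525, 495, 532 and 481 in Abi3_KO, a log2 fold change of -0.0066 (SE 0.073). Dlg2, encoding PSD-93, had a log2 fold change of -0.08 (SE 0.087) with all 5 Abi3_KO animals inside the Abi3_WT range.

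Dlg3, which encodes SAP102, was the scaffold gene with the lowest p. It had 236 to 284 normalized counts in Abi3_WT (median 258) and 320, 287, 283, 296 and 357 in Abi3_KO. Of the 5 Abi3_KO animals 4 were above every Abi3_WT animal, and the remaining animal was just under the highest of them. The mean was 19.5% higher, a log2 fold change of 0.26 (SE 0.105, unadjusted p 0.0139, DESeq2 adjusted p 0.244), which did not pass the threshold, and without each animal in turn it stayed between 0.20 and 0.29.

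The Dlgap genes encode the SAPAP proteins that bridge Dlg and Shank. Their log2 fold changes were 0.10 for Dlgap1, -0.07 for Dlgap2, -0.0044 for Dlgap3 and -0.14 for Dlgap4, with standard errors of 0.070, 0.117, 0.118 and 0.098. Dlgap2 spread unequally within the genotypes, from 280 to 316 normalized counts in Abi3_WT and in Abi3_KO at 250, 232, 341, 346 and 258, so that 3 Abi3_KO animals lay below every Abi3_WT animal and 2 lay above. Dlgap4 had 4 of 5 Abi3_KO animals under the lowest Abi3_WT animal, at 710, 646, 731 and 742 against a minimum of 755, while the other Abi3_KO animal had 949.

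The Shank genes encode the large scaffolds that anchor the density to actin. Shank1 had 362 to 487 normalized counts in Abi3_WT (median 434) and 261, 324, 359, 428 and 446 in Abi3_KO. Abi3_KO replicates 1, 2 and 3 were lower than every Abi3_WT animal and replicates 4 and 5 were inside the range, and the log2 fold change of -0.24 (SE 0.128, adjusted p 0.459) did not pass. Shank2 and Shank3 had log2 fold changes of 0.05 (SE 0.175) and -0.15 (SE 0.161), with overlapping groups.

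The Homer genes encode adaptors of Shank and metabotropic receptors. Homer2 had a log2 fold change of -0.20 (SE 0.111, adjusted p 0.495), with 368 to 499 normalized counts in Abi3_WT and 306 to 456 in Abi3_KO. Homer3 was too low for a firm value, with 3 to 27 reads per library and a 95% interval of the log2 fold change from -0.81 to 1.31. Homer1 gave 0.13 (SE 0.197) with a wide spread between animals, described further on.

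The remaining scaffold and signalling genes act in calcium signalling and actin control in the spine. Camk2a, the alpha subunit of calcium/calmodulin-dependent kinase II, had 5506 to 6114 normalized counts in Abi3_WT (median 5885) and 5520, 5255, 5319, 5848 and 6388 in Abi3_KO, a log2 fold change of -0.04 (95% interval -0.16 to 0.07). The Abi3_KO animals lay on both sides of the Abi3_WT range, with 2 below it and 1 above. Camk2b, the beta subunit, gave 0.03 (SE 0.091). Nrgn, encoding neurogranin, which binds calmodulin, gave 0.11 (SE 0.077), and Baiap2, encoding the actin regulator IRSp53, gave -0.07 (SE 0.102).

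**Figure D2:**
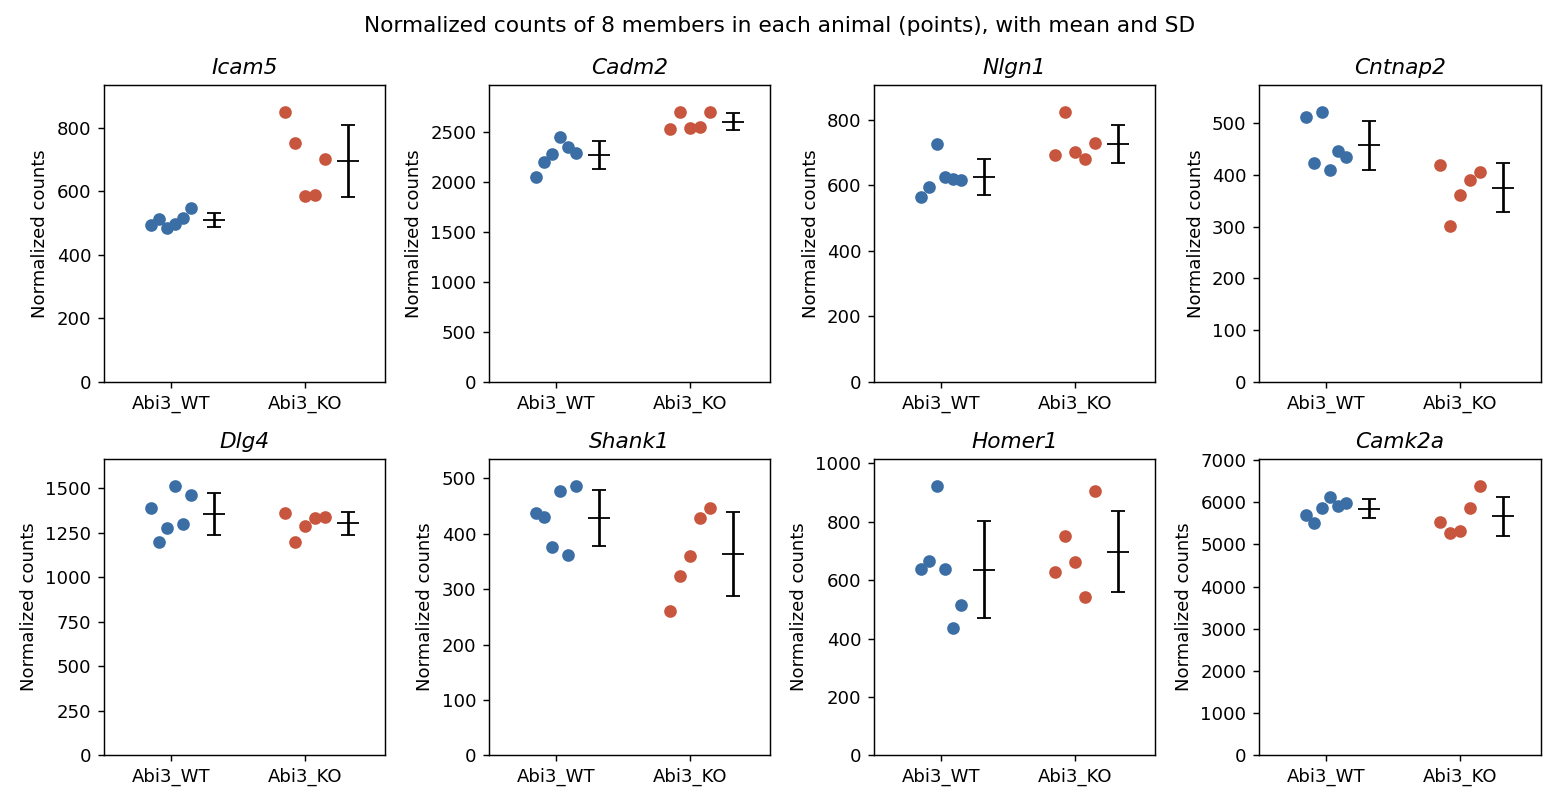
Normalized counts of 8 of the genes on a linear axis from 0, with 1 point for each animal in replicate order and the mean with SD beside each group (Abi3_WT n = 6, Abi3_KO n = 5). Icam5 and Cadm2 separate the genotypes, Nlgn1 and Cntnap2 overlap at their edges, and Dlg4, Shank1, Homer1 and Camk2a overlap.

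Icam5 (ENSMUSG00000032174, GRCm39 chr9:20943050-20950336, plus strand) differed most between the genotypes. It had 485 to 547 normalized counts in Abi3_WT (median 506) and 849, 752, 584, 588 and 701 in Abi3_KO. The groups did not overlap: the lowest Abi3_KO animal stood above the highest Abi3_WT animal, and the Abi3_KO animals spread more widely, with a coefficient of variation of 16.2% against 4.36%. The mean was 36.7% higher, a log2 fold change of 0.45 (SE 0.097, 95% interval 0.26 to 0.64, adjusted p 0.00195). It passed the threshold without any 1 of the 11 animals, with log2 fold changes of 0.37 to 0.51.

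Reads outside genes differed by genotype as Icam5 did, so their part in the Icam5 difference cannot be told apart from that of genotype. Within Abi3_KO, replicates 2, 5 and 1, at 49.8, 51.1 and 52.8 such reads per 100 reads in genes, had 752, 701 and 849 Icam5 counts. Replicates 3 and 4 of Abi3_KO, at 53.7 and 62.5, had the lowest of that group, 584 and 588, still above all Abi3_WT animals. Within Abi3_WT, replicate 3 at 59.3 had the lowest Icam5 value, 485, and replicate 6 at 68.8 had the highest, 547. Between them, replicates 5 and 2 at 64.7 and 65.3 had 516 and 514, and replicates 1 and 4, both at 68.5, had 493 and 498. With reads outside genes as a covariate in the fit, the Icam5 log2 fold change was 0.28 (SE 0.175, unadjusted p 0.114, adjusted p over 0.99) and no longer passed, and 3 of all genes were called. With limma-voom it was 0.41 at an adjusted p of 0.0632, and with edgeR 0.44 at 0.0176.

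**Figure D3:**
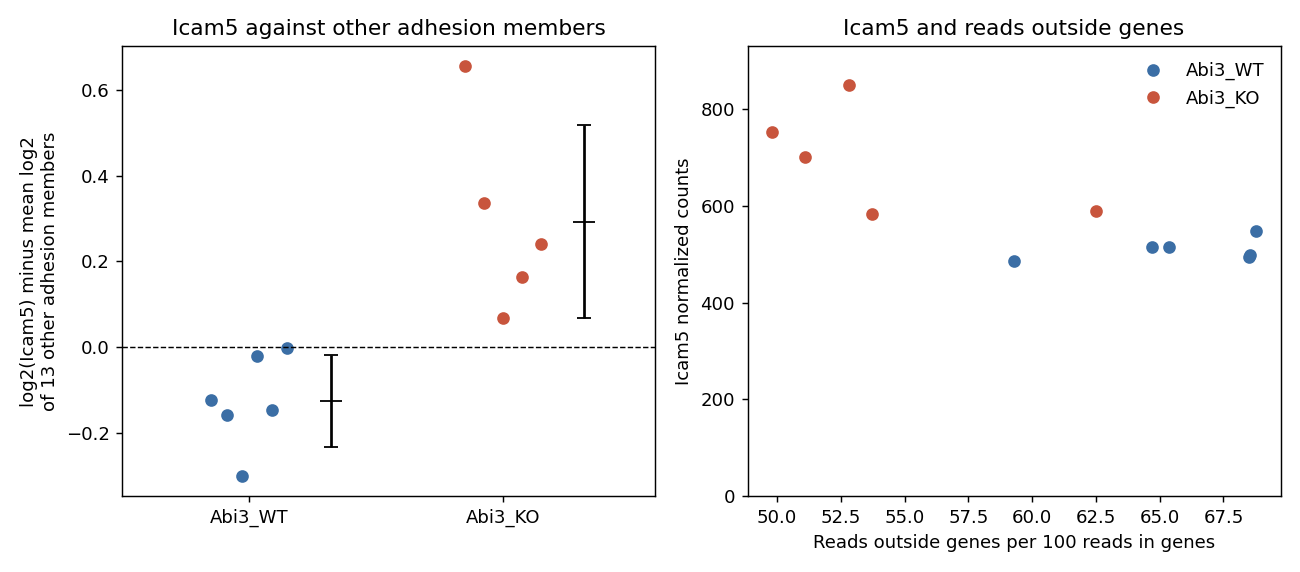
Left, log2(normalized count + 1) of Icam5 minus the mean of the same over the 13 other adhesion genes in each animal, with group mean and SD. Right, Icam5 normalized counts against reads outside genes per 100 reads in genes; all 5 Abi3_KO animals lie above all 6 Abi3_WT animals on both vertical axes, and 1 Abi3_KO animal falls within the horizontal range of Abi3_WT.

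The other 13 adhesion genes had log2 fold changes from -0.28 (Cntnap2) to 0.25 (Cadm3), with a median of -0.0043, so that Icam5 lay 0.46 above that median. Of their 95% intervals, 7 lay wholly below that of Icam5, those of Nrxn2, Nrxn3, Cntnap1, Cntnap2, Ncam1, L1cam and Nlgn2, and 6 overlapped it. In single animals, log2 of Icam5 minus the mean log2 of the 13 was -0.12 ± 0.108 (SD, n = 6) in Abi3_WT and 0.29 ± 0.225 (n = 5) in Abi3_KO, a difference of 0.42 with no overlap between the groups. Set against the median of the 13 instead, the difference was 0.68, but that median fell on Cntnap2 in 9 of the 11 animals, and Cntnap2 was itself lower in Abi3_KO. These differences describe the contrast the genes were listed from and carry no test.

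Cadm2 (ENSMUSG00000064115, GRCm39 chr16:66451872-67417816, minus strand) encodes an immunoglobulin-domain adhesion protein of the SynCAM family. It had 2043 to 2444 normalized counts in Abi3_WT (median 2284) and 2523, 2692, 2539, 2546 and 2697 in Abi3_KO, again without overlap. The mean was 14.7% higher, a log2 fold change of 0.20 (SE 0.056, adjusted p 0.0384). The size held in every alternative at 0.15 to 0.22, while the call did not: edgeR gave an adjusted p of 0.393 and limma 0.171, and the call was lost on leaving out any animal except Abi3_WT replicates 2 and 4 and Abi3_KO replicate 4.

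Cadm3, of the same family, had 485 to 719 normalized counts in Abi3_WT (median 561) and 661, 864, 698, 552 and 652 in Abi3_KO, largely overlapping, with a log2 fold change of 0.25 (SE 0.115, adjusted p 0.353). Its annotated span shares 493 bases on the same strand with that of Ackr1, and how reads there were assigned was not tested. With reads outside genes as a covariate its log2 fold change was -0.21, of the opposite sign.

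The neuroligins are postsynaptic partners of neurexins, Nlgn1 at excitatory and Nlgn2 at inhibitory synapses. Nlgn1 had 564 to 726 normalized counts in Abi3_WT (median 618) and 693, 823, 699, 681 and 727 in Abi3_KO. All 5 Abi3_KO animals exceeded 5 of the 6 Abi3_WT animals, and replicate 3 of Abi3_WT, at 726, lay among them. The log2 fold change was 0.22 (SE 0.082, unadjusted p 0.00802, DESeq2 adjusted p 0.185), and without that animal it was 0.27 with an adjusted p of 0.0499, just past the threshold. With reads outside genes as a covariate it was -0.02. Nlgn2 gave -0.12 (SE 0.164) and Nlgn3 0.08 (SE 0.149), neither past the threshold.

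The neurexins Nrxn2 and Nrxn3, presynaptic partners of neuroligins and LRRTM proteins, had log2 fold changes of -0.08 (SE 0.064) and -0.06 (SE 0.072). Lrrtm1 and Lrrtm2, postsynaptic leucine-rich repeat proteins, had 0.18 (SE 0.203) and 0.02 (SE 0.136). Ncam1 and L1cam, immunoglobulin-domain proteins of axons and dendrites, had -0.09 (SE 0.077) and -0.0043 (SE 0.096). None of these 6 genes had an unadjusted p under 0.05.

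The CASPR genes encode neurexin-related proteins of the axon, Cntnap1 at the junction beside the node of Ranvier and Cntnap2 at the neighbouring stretch that clusters potassium channels. Cntnap2 had 410 to 522 normalized counts in Abi3_WT (median 440) and 419, 301, 362, 390 and 405 in Abi3_KO. All but 1 of the Abi3_KO animals lay below every Abi3_WT animal, and the mean was 17.8% lower, a log2 fold change of -0.28 (SE 0.104, unadjusted p 0.00645, DESeq2 adjusted p 0.165) that did not pass. Cntnap1 gave -0.08 (SE 0.107).

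The genes differed widely in how far animals of 1 genotype varied. Homer1 had a coefficient of variation of 26.1% in Abi3_WT and 19.9% in Abi3_KO, where counting error alone gives 3.95%. Its normalized counts ran from 435 to 924 in Abi3_WT (median 638) and were 628, 750, 661, 541 and 906 in Abi3_KO, the top animals being Abi3_WT replicate 3 and Abi3_KO replicate 5. Homer1 produces a short, activity-induced form as well as long forms, and the gene-level count adds them. Arc and Egr1, activity-induced genes named after their values were seen, were highest within each genotype in the same animals, at 322 and 437 counts for Arc (next highest 239 and 230) and 737 and 536 for Egr1 (next highest 435 and 390). By comparison Dlg1 varied by 2.05% and 4.11% where counting error gives 4.43%, and Camk2a by 3.69% and 8.20% where it gives 1.32%.

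**Figure D4:**
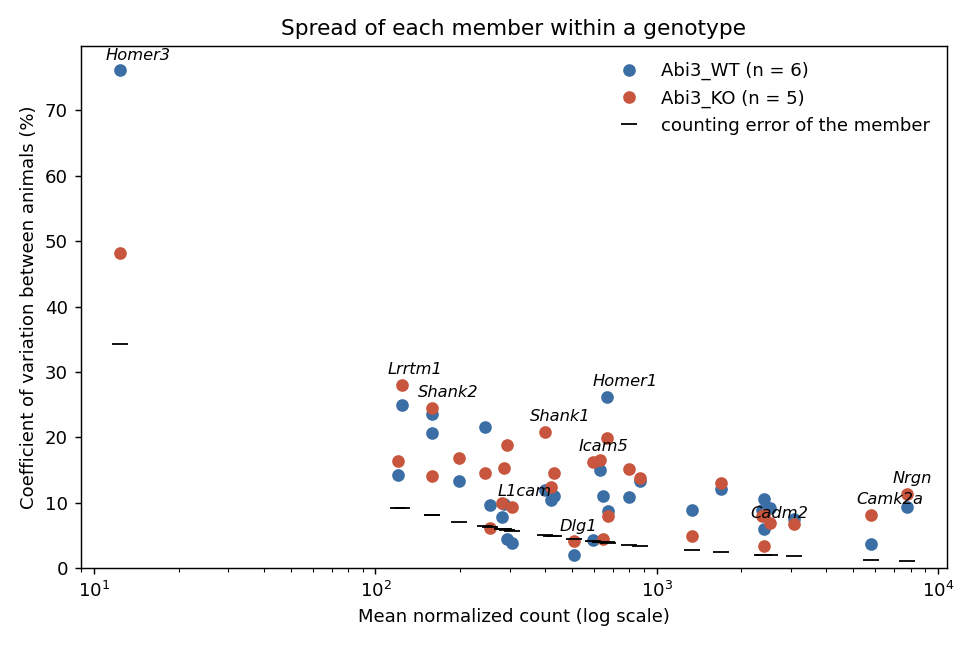
Coefficient of variation between animals of 1 genotype (%) against the mean normalized count (log axis) for the 32 genes, with the counting error of each gene as a dash. Homer1 and Lrrtm1 stand far above their counting error, and Dlg1 lies below its own.

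Inside 2 of the longest genes, Dlg2 and Cntnap2, the annotation places many TEC genes, short transcribed stretches still to be experimentally checked, on the same strand as the host. They were looked at after their values had been seen. In Dlg2, 20 such genes summed to 1598 ± 76.6 normalized counts in Abi3_WT (SD, n = 6, range 1479 to 1696) and in Abi3_KO to 1034, 1046, 1033, 1518 and 1185. The sum was 0.46 lower on the log2 scale in Abi3_KO, where Dlg2 itself was 0.08 lower. Of 19 reported, 18 had a negative log2 fold change and 2 were called lower. The Abi3_KO animal at 1518, inside the Abi3_WT range, was replicate 4, the library with the most reads outside genes in that group.

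The 22 TEC genes inside Cntnap2 summed to 584 ± 43.5 in Abi3_WT (range 516 to 645) and to 476, 425, 510, 547 and 351 in Abi3_KO, a log2 ratio of -0.34 beside -0.28 for Cntnap2. Of 20 reported, 16 were negative and none was called by DESeq2. The same direction held over the whole annotation, where 1011 of 1355 reported TEC genes were negative with a median log2 fold change of -0.37 and their share of reads in genes was 0.804% to 0.925% in Abi3_WT and 0.586% to 0.810% in Abi3_KO. The part of reads outside genes in these values was not tested.

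**Figure D5:**
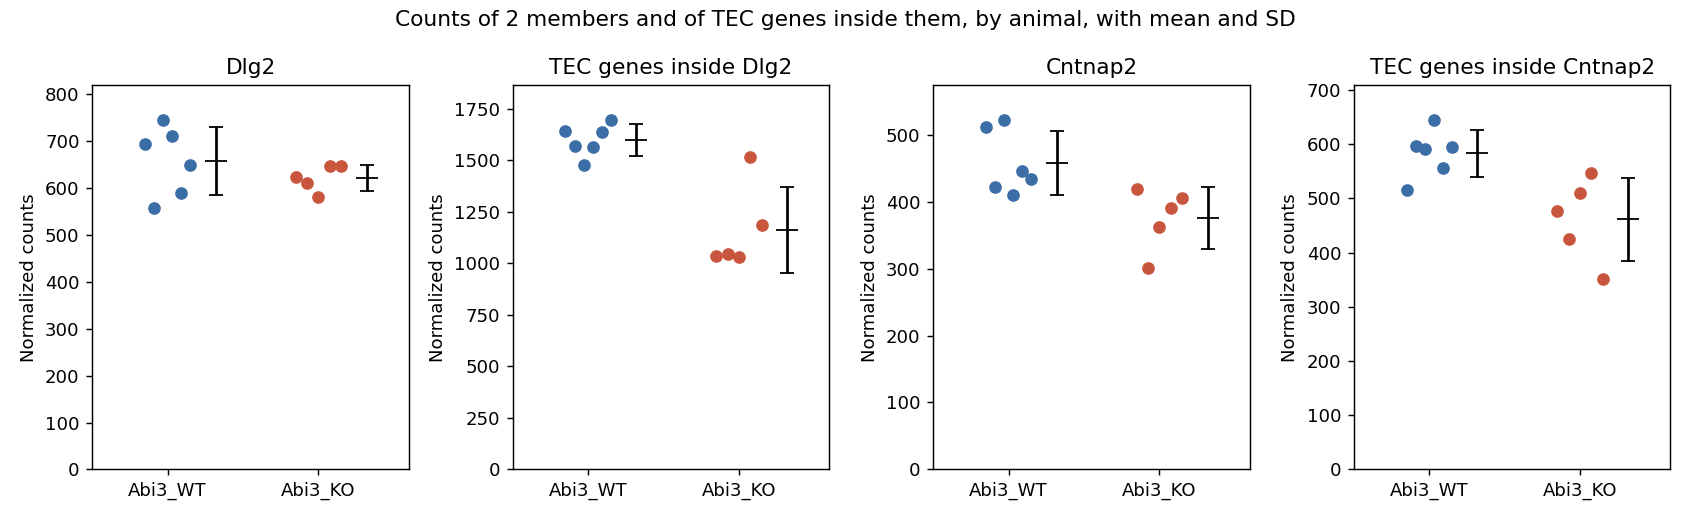
Normalized counts of Dlg2 and Cntnap2 and the summed normalized counts of the TEC genes inside each, on linear axes from 0, 1 point for each animal in replicate order, with mean and SD (Abi3_WT n = 6, Abi3_KO n = 5). The TEC sums in Dlg2 separate all Abi3_KO animals except replicate 4 from Abi3_WT, while Dlg2 itself overlaps.

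Genes of the same machinery outside the list were compared in the same fit. Of 112 such genes 110 were reported, 92 received an adjusted p, 3 were called lower and none higher, with 6 higher and 8 lower at an unadjusted p under 0.05. By edgeR and limma none of them was called in either direction. Their median log2 fold change was -0.02. Over all genes, 1.46% of those given an adjusted p were called by DESeq2. An unadjusted p under 0.05 was reached by 8.58% of all reported genes and 12.9% of those with a mean of at least 100.

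Among 39 other genes of the postsynaptic density, 2 were called lower and none higher by DESeq2. Grip1, encoding an adaptor of AMPA-type glutamate receptors, had 118 to 182 normalized counts in Abi3_WT and 87.6 to 110 in Abi3_KO, a log2 fold change of -0.56 (SE 0.152, adjusted p 0.0269). Cit, encoding citron, a protein that binds PSD-95, had 817 to 885 against 603 to 751, a log2 fold change of -0.30 (SE 0.071, adjusted p 0.00758). In both the groups did not overlap. Cit passed without any 1 animal, whereas Grip1 was lost without Abi3_WT replicates 1, 2, 5 or 6 or Abi3_KO replicates 2, 4 or 5. Pick1, encoding another AMPA receptor adaptor, had a log2 fold change of -0.48 (SE 0.229, adjusted p 0.361).

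Among 59 other synaptic adhesion genes, 58 of them reported, 1 was called lower and none higher. Ptprs, encoding the presynaptic receptor phosphatase PTP sigma, had 676 to 755 normalized counts in Abi3_WT and 577 to 655 in Abi3_KO, a log2 fold change of -0.25 (SE 0.072, adjusted p 0.0459). It was lost without Abi3_WT replicates 1, 3, 5 or 6 or Abi3_KO replicates 1, 2 or 3. Chl1, a close relative of L1cam, had 0.36 (SE 0.112, adjusted p 0.0726), and Lrrtm4 had -0.42 (SE 0.206, adjusted p 0.375), and neither passed. Of 14 other Icam genes and partners of Icam5, 13 were reported and 6 received an adjusted p from DESeq2. None of those 6 was called, edgeR and limma called none of the list, and none of the 13 had an unadjusted p under 0.05. Its integrin receptor subunit Itgb1 had a log2 fold change of -0.12 (SE 0.125), Ezr, encoding the cytoskeletal linker ezrin, had -0.07 (SE 0.127), and Actn1, encoding alpha-actinin, had 0.05 (SE 0.123).

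Within 100000 bases of Icam5, 8 other genes were reported and none had an unadjusted p under 0.05, the lowest being 0.0782 for Icam1. Their log2 fold changes ran from -1.03 (Icam4, SE 1.29) to 1.16 (Icam1, SE 0.658), the latter in the same direction as Icam5. Icam1 and Icam4, the neighbouring genes of its family, averaged 7.32 and 2.47 normalized counts, too few to show a difference of the size seen for Icam5.

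The cell type markers listed for this tissue were detected in every animal. The summed counts of 10 neuron markers were 21387 to 24057 in Abi3_WT and 23540 to 26241 in Abi3_KO, a ratio of means of 1.07, and those of 7 excitatory neuron markers were 1726 to 2328 and 2047 to 2671, a ratio of 1.11. None of these 17 was called, but 9 of the 10 and 7 of the 7 had a positive log2 fold change. At an unadjusted p under 0.05 stood 3 neuron markers, all higher: Stmn2 at 0.30 (p 0.00101, DESeq2 adjusted p 0.0641), Nefl at 0.21 and Snap25 at 0.18. The other ratios were 0.962 for inhibitory neuron, 0.935 for astrocyte, 1.12 for microglia, 1.08 for oligodendrocyte, 1.05 for oligodendrocyte precursor and 1.05 for endothelial markers, with overlapping ranges in each. One marker was called, the oligodendrocyte gene Cldn11, at a log2 fold change of 0.53 (DESeq2 adjusted p 0.0106). The part of cell composition in the Icam5 and Cadm2 values was not tested.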

How the data were processed

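Cortical RNA of 11 mice was sequenced by QuantSeq, 1 library per animal. Per the methods of the study, the authors removed adapter and homopolymer sequence with bbduk, aligned single reads to GRCm39 with STAR 2.7.3a and counted them per Ensembl gene and by strand with HTSeq 0.9.1. The deposited values are raw counts. Removal of PCR copies is not stated, so counts are of reads. Names and positions came from GENCODE of the same build. Following the methods of the study, DESeq2 1.42.0 (R 4.3.3) was fitted with genotype as the only term on genes with at least 10 counts in total. Genes with a mean of at least 1.5 normalized counts were reported. Adjusted p-values are Benjamini-Hochberg values. In the DESeq2 fit they cover the 6487 genes left by independent filtering on the mean count, and in edgeR and limma all genes fitted. Intervals are 95% Wald intervals. edgeR 4.0.16 (quasi-likelihood), limma 3.58.1 (voom with sample weights), other filters and scalings, a replicate block, a covariate and leaving out each animal were alternatives. The code was tested on simulated counts. The labels name no batch.

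The genes, lists and tests were chosen with earlier results of these data known. All listed genes are named. Of the 3 comparison lists, called genes are named, filled up to 3 per list by the largest change at a mean of at least 50 counts. Same-numbered animals deviated together only weakly (mean correlation 0.040, range -0.02 to 0.12), so numbers were not taken to pair animals.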

Additional observations from a re-analysis of the deposited data

Results flagged for a closer look

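In 66 groups of values (32 genes and the Icam5 difference, in each genotype), 3 held an animal far from the rest by Dixon's test, where chance gives about 3.3. All 3 were Abi3_WT animals. Dlg1 had 531 normalized counts in replicate 1, where the next highest animal had 513, a small gap in a gene that hardly varied. Homer3 had 28.2 in replicate 3 (27 reads), where the next had 11.1. Nlgn1 had 726 in replicate 3, where the next had 624. Replicate 3 was also the Abi3_WT library with the fewest reads outside genes and the highest Homer1 count.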

How the results depend on the processing

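The 95 calls over all genes became 44 with edgeR, 24 with limma, 57 without independent filtering, 3 with reads outside genes as a covariate, and 46 to 120 without 1 animal (46, 47, 48, 61 and 61 without Abi3_KO replicates 2 and 5, Abi3_WT replicate 6, Abi3_WT replicate 1 and Abi3_KO replicate 1). The 2 calls among the 32 genes became 1 with edgeR, TMM factors, a minimum of 10 counts in 5 animals, or no independent filtering, 0 with limma or the covariate, and 1 to 2 without 1 animal. Of the 10 alternatives Icam5 passed in 8, failing with limma (0.41) and the covariate (0.28), and Cadm2 passed in 3. The 3 calls among 112 related genes became 0 with edgeR, limma or the covariate, 1 without independent filtering, and 1 to 3 without 1 animal (1 without Abi3_WT replicates 1 or 6 or Abi3_KO replicate 2). Cit passed in 7 of the 10, Grip1 in 4 and Ptprs in 2. The adhesion median of 0.0060 became -0.14 with the covariate, and the lead of Icam5 over the other adhesion genes, 0.46, became 0.68 on medians by animal, where Cntnap2 was the middle gene. The mean by animal, 0.42, was added after seeing the data. The causes of the other changes were not tested.

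With the replicate number as a block on replicates 1 to 5, 33 of all genes and 1 of the 32 (Icam5, 0.46, adjusted p 0.00597) were called. No member reversed past the threshold, but with reads outside genes as a covariate several changed sign, among them Shank1, Shank2, Homer1, Lrrtm1 and Cadm3. Depth limits genes as low as Homer3, Icam1 and Icam4.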
